A study of Mus musculus with 12 samples.

Results

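Necklace neurons are a small set of olfactory neurons whose axons ring the caudal olfactory bulb, and 4 genes of their signalling chain were followed here: Gucy2d, Cnga3, Car2 and Pde2a. Each was taken by its symbol from a table of 46297 gene rows, and each symbol matched 1 row. It reports total RNA from the olfactory mucosa, 1 library from each of 12 male mice aged P30 (postnatal day 30), with 129S6;C57BL/6J given as the strain. By their labels 6 were wildtype, and the other 6 carried a deletion of enhancer A (eA), an element of 912 bp on chromosome 7 that the series title ties to class I odorant receptors. They do not say whether both chromosomes carried the deletion, nor whether the wildtype animals were littermates. The question put to the 4 genes was whether RNA of a neuron type outside the odorant receptor system differed without the element.

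Most olfactory neurons choose 1 odorant receptor and signal through cAMP. Necklace neurons instead use a cGMP chain: carbonic anhydrase 2, the product of Car2, turns carbon dioxide into bicarbonate, and the receptor guanylate cyclase GC-D, the product of Gucy2d, makes cGMP when it meets bicarbonate or the guanylin peptides. The cGMP opens a channel that contains the Cnga3 subunit, and the cGMP-stimulated phosphodiesterase encoded by Pde2a breaks the messenger down. The same neurons are known for MS4A membrane proteins, which act in them as chemoreceptors. Gucy2d is the defining gene of the type in the mouse nose, while Car2 and Pde2a are also used by many other cells.

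The libraries held 13011763 to 23039733 gene reads. Values are normalized counts, the reads of a gene divided by a size factor of its library. A satellite gene, Gm10800, took 2.78% to 7.80% of reads in 4 libraries (wildtype 2 and 3, deletion 3 and 6) and under 1% in the other 8, so member values are also given within these sets, which were defined after seeing the data. Within both sets the share stayed higher in wildtype. It was 0.079% to 0.885% against 0.00133% to 0.0103% in the 8, and 7.01% to 7.80% against 2.78% to 4.50% in the 4. A difference that goes with Gm10800 thus cannot be told apart from the deletion within a set. In bulk RNA, fewer cells of a type and less RNA per cell cannot be told apart.

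In the annotation, Pde2a shares most of its coding bases with another gene. In GENCODE M21 a second gene model on the same strand, RP23-194H4.2 in the table and Gm45837 in that release, starts upstream and runs through Pde2a (chromosome 7, 101421691 to 101512827, GRCm38). Of the 6149 exonic bases of Pde2a, 3955 (64.3%) are also exonic in that model, and of its 2980 coding bases 2796 (93.8%) are. Of the 184 coding bases held by Pde2a alone, the 2 longest stretches are the coding parts of alternative first coding exons. They are shown, because they are the longest coding stretches that belong to this row and no other, from the GENCODE M21 transcripts with the start codon in capitals.
Pde2a coding start at chr7:101421925-101421995, plus strand, 71 bases: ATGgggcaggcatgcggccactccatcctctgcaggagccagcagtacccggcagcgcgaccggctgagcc
Pde2a coding start at chr7:101450628-101450728, plus strand, 101 bases: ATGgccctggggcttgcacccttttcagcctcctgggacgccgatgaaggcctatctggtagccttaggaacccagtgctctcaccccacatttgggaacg
The exonic bases of the other 3 members are shared with 0 other gene models on either strand.

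**Figure D1:**
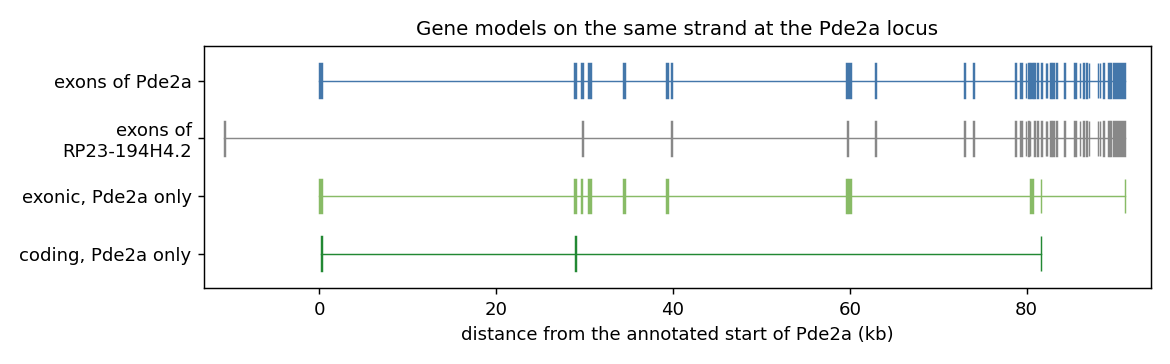
Exons of Pde2a and of the overlapping model RP23-194H4.2 by distance in kb from the annotated start of Pde2a, with the exonic and the coding stretches that only Pde2a holds. Most coding exons lie in both models, and the coding stretches left to Pde2a alone add up to 184 bases.

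The receptor cyclase Gucy2d (ENSMUSG00000074003.4) was detected in every library, with 58 to 220 reads. Its wildtype libraries ran from 72.1 through a median of 86.1 to 127 normalized counts, and its deletion libraries from 72.9 through 110 to 204. The groups overlapped, with 2 of 6 deletion libraries above the highest wildtype library. Deletion library 5 stood highest of all, and wildtype library 1 lowest. The means were 94.8 ± 22.8 in wildtype and 120 ± 46.3 in the deletion (SD, n = 6 each). The log2 fold change of deletion over wildtype, on a log2(value + 1) scale, was 0.30 ± 0.21 (SE), with an adjusted p of 0.799 by limma over all 19373 genes with a mean of at least 10. The 95% interval of that change, -0.16 to 0.75, reaches from 0.894-fold to 1.68-fold and includes no change. An exact two-sided permutation test gave p 0.277. Without deletion library 5 the log2 change was 0.13.

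The channel subunit Cnga3 (ENSMUSG00000026114.14; chromosome 1, 37214434 to 37263384) was the least abundant of the 3 members that could be tested, with 4 to 17 reads per library. Wildtype libraries held 4.22 to 16.1 normalized counts with a median of 8.02, and deletion libraries 5.27 to 18.3 with a median of 14.2. In the deletion, 5 of 6 libraries lay between 13.5 and 18.3, while library 2 stood apart at 5.27. Wildtype library 3 lay among the deletion libraries, so the groups overlapped. Means were 9.19 ± 4.23 and 13.5 ± 4.40, a log2 change of 0.53 ± 0.34 that did not pass (adjusted p 0.787, limma; exact permutation p 0.149). Without deletion library 2 the exact permutation p was 0.0281 and the limma adjusted p 0.778. The interval of -0.20 to 1.27 on the log2 scale spans 0.872-fold to 2.41-fold, and a gene with so few reads allows no narrower statement.

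Car2 (ENSMUSG00000027562.12; chromosome 3, 14886273 to 14900770), the carbonic anhydrase, was both the most abundant member and the one with the least spread among animals. Wildtype libraries ran from 1348 through 1497 to 1547 normalized counts, and deletion libraries from 1509 through 1666 to 1912. Of the deletion libraries, 5 of 6 exceeded the highest wildtype library, and only deletion library 4 lay within the wildtype range. Wildtype averaged 1474 ± 80.6 and the deletion 1688 ± 147, 14.5% more. The log2 change was 0.19 ± 0.06, with a 95% interval of 0.06 to 0.32 (1.04-fold to 1.25-fold). Taken alone the difference of means passed 5% (limma unadjusted p 0.00654, exact permutation p 0.00866), but over all genes it did not pass (limma adjusted p 0.56). Genes with an unadjusted p under 0.05 made up 6.68% of all those tested, and Car2 ranked 226th by p.

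The phosphodiesterase Pde2a (ENSMUSG00000110195.1) had a mean of 5.03 normalized counts, too low for the test across genes. Its reads numbered 0 to 15 per library, 41 in all wildtype libraries and 15 in all deletion libraries. Wildtype values were 0 to 20.2 with a median of 6.38, and deletion values 0 to 3.99 with a median of 3.03. Wildtype libraries 2 and 3, at 20.2 and 10.4, were the highest, and both belong to the 4 libraries rich in Gm10800 reads. Wildtype averaged 7.58 ± 7.16 and the deletion 2.48 ± 1.58. The difference of log2 means, -0.95, did not pass (exact permutation p 0.221). It was -0.30 in the 8 libraries with little Gm10800 signal and -2.25 in the other 4, and -0.52 with Gm10800 as a covariate in limma (adjusted p 0.948). Fitted to recovered reads, the log2 change was -1.50 in edgeR (adjusted p 0.584) and -1.58 in DESeq2 (adjusted p 0.883). The difference was -0.58 without wildtype library 2, -0.62 without deletion library 2, and -1.46 with an exact permutation p of 0.0281 without wildtype library 5, the only wildtype library at 0. Over all 46297 genes, without the filter on the mean, the median log2 change in limma was -0.12, against 0.01 for the 19373 tested. Wildtype libraries 2 and 3 also had the most genes detected, 42218 and 41237, against 28832 to 37627 in the others. Whether these bear on the Pde2a difference was not tested. RP23-194H4.2, which covers most of the same exons, was at 0 in 9 of 12 libraries and had 4 reads in the others together. How the authors' counting treated reads on shared exons is not given in the sources used here, and its part in these low values was not tested.

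**Figure D2:**
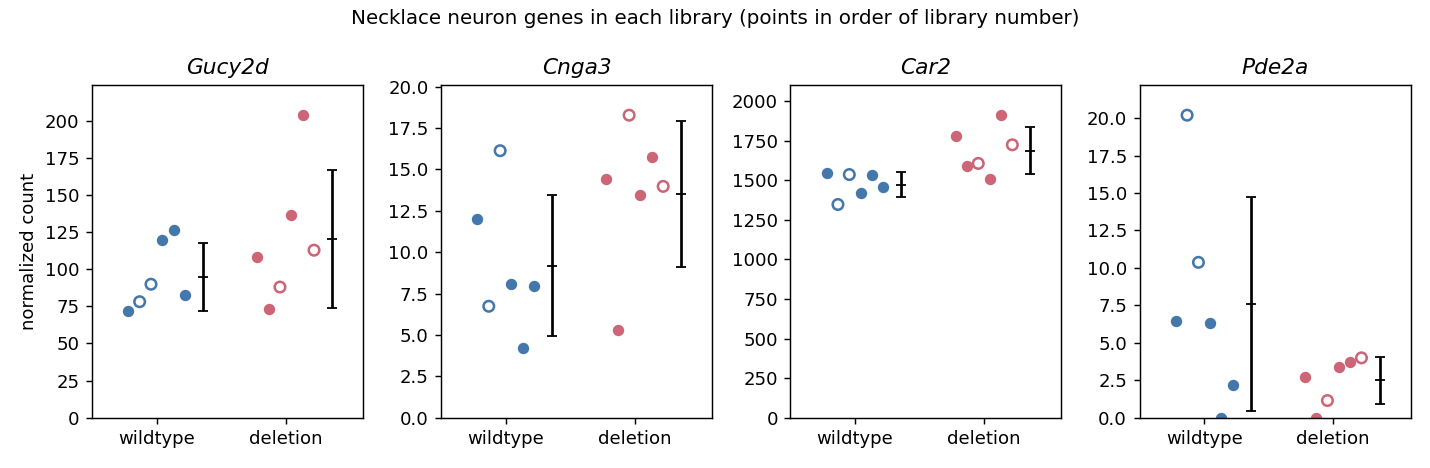
Normalized counts of the 4 members in each of 6 wildtype and 6 deletion libraries; points are libraries in order of their number, open points are the 4 libraries with over 1% of reads in Gm10800, and bars give the mean and SD. For Car2, 5 of 6 deletion libraries lie above the highest wildtype library, and for the other members the groups overlap more widely.

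None of the 3 members that could be tested was called by limma at an adjusted p under 5%, and 1 of them, Car2, had an unadjusted p under 0.05. edgeR and DESeq2 on recovered reads also called 0 of 3, each with 1 at an unadjusted p under 0.05. Over all genes tested, edgeR called 0.346% and DESeq2 0.47%. The share called by limma was 0.372%, with 0.031% higher and 0.341% lower in the deletion. All 3 estimates were positive, as were 10190 of the 19373 genes tested. The absolute change was larger than that of 77.6% of all genes for Car2, of 87.5% for Gucy2d and of 95.7% for Cnga3. This order takes no account of spread, which is wide for a gene with few reads such as Cnga3. By limma p, Car2 ranked 226th, Cnga3 3474th and Gucy2d 4581st of the 19373.

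The means of these 3 members were higher in the deletion in both sets of libraries, within which the Gm10800 share also differed between groups. In the 8 libraries with little Gm10800 signal, 4 of each group, Car2 averaged 1490 ± 62.1 without the deletion and 1699 ± 182 with it (exact permutation p 0.0857, where the smallest possible is 0.0286). Gucy2d averaged 100.2 ± 27.0 and 130 ± 55.4 there (exact permutation p 0.486), and Cnga3 8.07 ± 3.19 and 12.2 ± 4.73 (exact permutation p 0.286). In the other 4 libraries, 2 of each group, the differences of log2 means were 0.21 for Car2, 0.25 for Gucy2d and 0.56 for Cnga3, and no split of 2 against 2 can go below an exact p of 0.333.

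Per kb of annotated exon, the members differed far more from each other than between groups. Car2 had a mean of 653 normalized counts per kb (library range 556 to 790), Gucy2d 26.2 (17.6 to 49.7) and Cnga3 2.87 (1.07 to 4.62). The order Car2, Gucy2d, Cnga3 held in 12 of 12 libraries, with a median ratio of 28.4 between Car2 and Gucy2d and of 9.90 between Gucy2d and Cnga3. The ranges of these 3 do not touch. Pde2a is left out of this order because its length counts exons it shares.

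Set beside their relatives, the members took very different places. Among 11 guanylate cyclase genes Gucy2d ranked 3 by mean level per kb, after Npr2, the receptor of C-type natriuretic peptide, and Gucy1b2, a soluble cyclase subunit of another rare olfactory neuron type. Gucy1b2 had 40.4 per kb (22.3 to 74.9), a range that takes in most of that of Gucy2d, and the next gene, Gucy1a3 at 22.1 (18.6 to 26.9), also lay within it. The ranges of these neighbours in the order thus overlapped that of Gucy2d. Within a library, Gucy2d was above Gucy1b2 in 3 of 12, with a median ratio of 0.65. Gucy1a3 was not compared with it within libraries. Car2 was first of 16 carbonic anhydrase genes, and its lowest library, at 556 per kb, was above the highest of Car6, the next by mean, at 338. Cnga3 lay near the bottom of its family: Cnga2, the channel subunit of the cAMP cascade, had 5365 per kb, a median of 1662 times the Cnga3 level within a library.

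No pair of members was correlated past the 5% threshold over the 12 animals. Of their 6 pairs, the closest by Pearson's r of log2 values was Gucy2d with Car2 (r 0.53, permutation p 0.0763, 0.261 adjusted over the 6 pairs; Spearman's rho 0.17, permutation p 0.588, adjusted 0.706). Without deletion libraries 4 and 5, the farthest from the Gucy2d median, r was 0.25. Without library 5 alone it was 0.16, and without library 4 alone 0.60, so what relation there was rested on library 5. Car2 with Cnga3 gave r 0.51 (permutation p 0.087, adjusted 0.261) and rho 0.57 (permutation p 0.0562, adjusted 0.337), and r 0.39 without deletion libraries 1 and 5. Gucy2d with Cnga3, the cyclase and the channel of the same neuron, gave r 0.24 and rho 0.23 (permutation p 0.448 and 0.47, adjusted 0.538 and 0.706), and r -0.04 without deletion libraries 4 and 5. Within the 8 libraries with little Gm10800 signal the 3 values of r were 0.48, 0.52 and 0.38 in the same order. The 3 pairs with Pde2a had r between -0.30 and 0.35, with adjusted permutation p of 0.504 or more. For Pde2a with Cnga3, r was 0.35 over all libraries and 0.76 in the 8 with little Gm10800 signal (permutation p 0.171 adjusted over the 6 pairs). It was 0.64 without wildtype library 2, 0.08 without wildtype library 5 and 0.16 without deletion library 2.

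The pooled values join groups with different means, so each pair was also taken within each group of 6, a step added after seeing the data. Gucy2d with Cnga3 had r -0.53 among wildtype libraries and 0.53 among deletion libraries (exact permutation p 0.278 and 0.293), with rho -0.31 and 0.20. Gucy2d with Pde2a had r -0.59 and 0.79 (exact permutation p 0.208 and 0.0597), with rho -0.60 and 0.83. None of the 12 values of r passed 5% after adjustment over the 12 (adjusted exact permutation p of 0.502 or more), and the difference between groups was not tested.

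**Figure D3:**
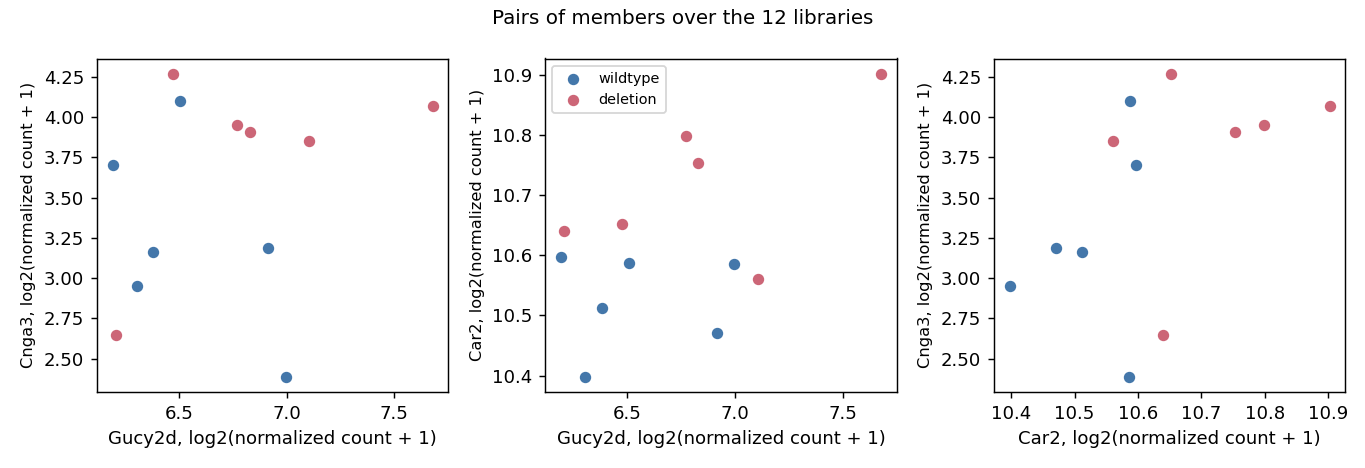
Each point is a library, placed by log2(normalized count + 1) of the 2 members named on the axes, for the 3 pairs without Pde2a. Deletion library 5 is high in both Gucy2d and Car2, and the remaining libraries show no tight relation between Gucy2d and Cnga3.

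Genes were also ranked by how closely they followed a member over the 12 libraries, as a description of these libraries. Among 15697 others with gene names, Gucy2d was followed most closely by Mocos (Pearson's r 0.89), Cdh26 (0.85) and Tm2d2 (0.85). Car2 was followed by Twsg1 (0.89), Arhgef10l (0.87) and Usp22 (0.87). Cnga3 was followed by Siglece (0.87), Olfr1150-ps1 (0.86) and Helb (0.81). None of these 9 is another member or a gene of the lists below, none was called by limma, and the best of so many genes will reach a high r.

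Both Gucy2d and Pde2a lie on chromosome 7, the chromosome of the deleted element (102509701 to 102510612, read as GRCm38). Gucy2d (98440416 to 98477479) lies 4.03 Mb and Pde2a 0.997 Mb before it, so these genes, unlike Car2 and Cnga3, are linked to the deletion. The labels give a mixed strain background, so an allele inherited with the deletion cannot be told apart from the deletion for such genes. From the start of Gucy2d to the element, 70 genes other than receptors could be tested, Gucy2d among them. limma called 0 of them (2 had an unadjusted p under 0.05), and their median log2 change was 0.04. Over all genes, limma called 0.372% and 6.68% had an unadjusted p under 0.05. edgeR called 0 of the 70, against 0.346% of all genes, and DESeq2 called 1, against 0.47%.

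Nearest to Gucy2d among tested genes were Acer3, Tsku and RP23-143J24.4 before it and Lrrc32, RP23-331A21.2 and RP23-331A21.5 after it, 11.8 to 201 kb away. Tsku and Acer3 had log2 changes of 0.08 and 0.08 and the other 4 between -0.31 and -0.13, all with limma adjusted p of 0.769 or more. Around Pde2a, Arap1 ended 9.11 kb before it and had a log2 change of 0.04, and Stard10, Clpb, RP23-67F4.3 and Inppl1 ranged from 0.03 to 0.27, with limma adjusted p of 0.811 or more. Atg16l2, an autophagy gene 119 kb before Pde2a, averaged 278 ± 15.0 in wildtype libraries and 215 ± 32.8 in deletion libraries, a log2 change of -0.38 ± 0.09 (limma adjusted p 0.18). It passed in DESeq2 on recovered reads (adjusted p 0.0269), with Gm10800 as a covariate (limma adjusted p 0.0258) and without deletion library 4 (limma adjusted p 0.00928).

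**Figure D4:**
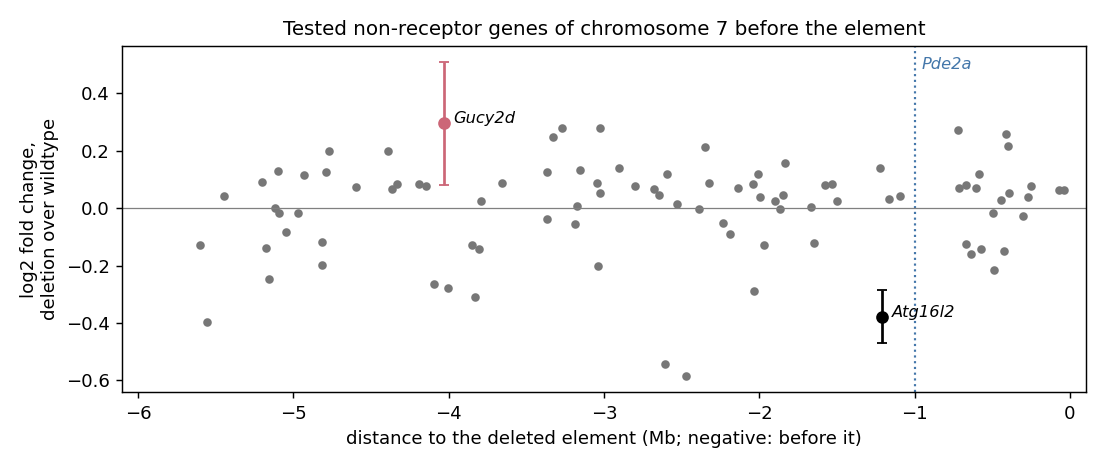
Log2 fold change of deletion over wildtype for tested genes other than odorant receptors within 6 Mb before the deleted element, by distance to it in Mb; bars on Gucy2d and Atg16l2 are SE and the dotted line marks the place of Pde2a, which was too low to test. Gucy2d, at 0.30, lies above its near neighbours, which run from -0.31 to 0.08.

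The genes around the members in the cGMP chain were read from lists of symbols. None of 61 tested genes of the 5 related lists was called by limma, against 0.372% of all genes. An unadjusted p under 0.05 was found for 5 of them, 2 higher and 3 lower, and for 6.68% of all genes. edgeR and DESeq2 also called 0 of 61, against 0.346% and 0.47% of all genes, each with 4 at an unadjusted p under 0.05. Of the natriuretic and guanylin receptors, soluble cyclases and guanylin peptides, 12 of 16 listed symbols were in the table and 9 could be tested, with 4 positive and 5 negative estimates and a median log2 change of -0.04, where all genes had 0.01. Npr1, the receptor of atrial natriuretic peptide, had the smallest p of them: 81.6 ± 13.8 in wildtype and 104 ± 13.4 in the deletion, log2 change 0.35 ± 0.13, limma adjusted p 0.696. Npr2 had a log2 change of 0.10, Gucy1a3, a soluble cyclase subunit, -0.10, and Gucy2f, a cyclase known from photoreceptors, -0.30. Gucy1b2, named here after its values were seen, had 0.35 ± 0.29. Guca2a and Guca2b, the guanylin peptides that stimulate GC-D, were too low to test.

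Of 22 cGMP targets and phosphodiesterases 18 could be tested, 8 positive and 10 negative, with a median log2 change of -0.02. Cngb1, a subunit of the channel of the cAMP cascade, had 4641 ± 344 and 5292 ± 301 normalized counts, a log2 change of 0.19 ± 0.06 with a limma unadjusted p of 0.00601 and adjusted p of 0.543. Its size and p are close to those of Car2. Cnga2 had 0.05, Pde1c, the phosphodiesterase of olfactory cilia, -0.03, and Pde6b, known from rods, -0.39 (limma adjusted p 0.752). The 12 genes of the odorant cascade, which overlap this list, had 11 positive and 1 negative estimate and a median of 0.06. Gnal, the G protein of that cascade, had 0.09 and Gnb1 0.02.

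Carbonic anhydrases other than Car2, with bicarbonate transporters, numbered 21 tested of 23. Only 6 estimates were positive and 15 were negative, with a median log2 change of -0.11, so the positive estimate of Car2 was not shared by most genes of this list, transporters included. Car11, whose protein lacks the enzyme activity, had 382 ± 126 in wildtype and 219 ± 86.4 in the deletion, a log2 change of -0.79 ± 0.30 (limma adjusted p 0.696). It lies on chromosome 7 as well, but 56.8 Mb before the element. Car5b, a mitochondrial enzyme, had 0.19, and the bicarbonate cotransporters Slc4a4 and Slc4a7 had 0.01 and 0.08, with limma adjusted p from 0.773 to 0.976.

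Of the MS4A family, 18 of 20 listed symbols were in the table and 5 could be tested, with 2 positive and 3 negative estimates and a median log2 change of -0.03. Ms4a7, known from macrophages, had 70.5 ± 14.6 and 67.1 ± 16.3 normalized counts, and Ms4a6b 46.7 ± 10.6 and 47.2 ± 9.09. Ms4a6c had a log2 change of 0.06. Ms4a1, the B cell marker CD20, had -0.73 ± 0.41 (limma adjusted p 0.761). Leukocytes carry several of these genes, so the summed leukocyte markers are given beside them: 1158 to 1539 normalized counts in wildtype and 1172 to 1458 in the deletion. Their part in the MS4A values was not tested.

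**Figure D5:**
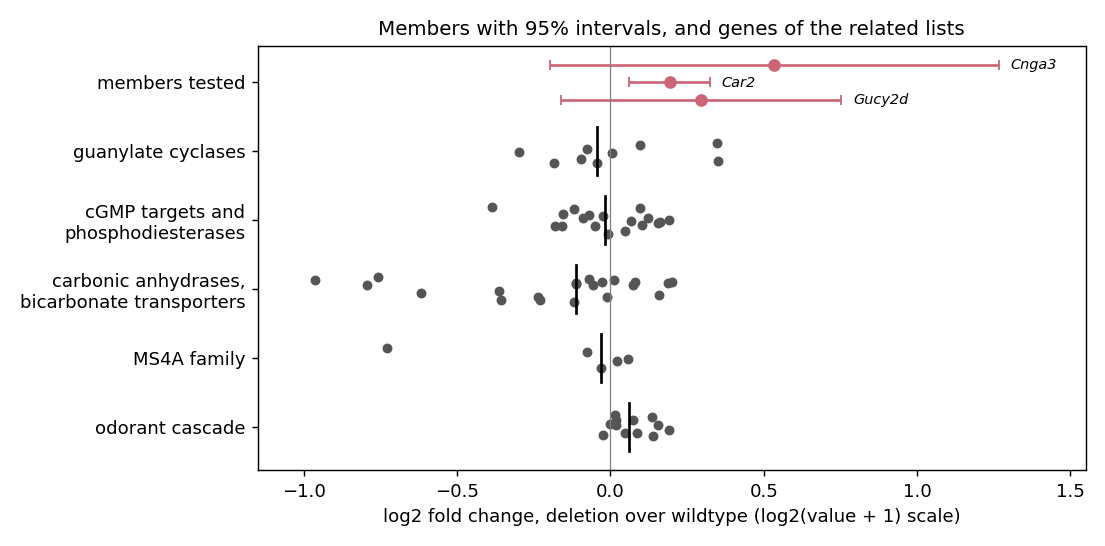
Log2 fold change of deletion over wildtype for the 3 tested members with 95% intervals and for the tested genes of the 5 related lists, with a vertical bar at the median of each list. The interval of Car2 lies above 0 before adjustment over all genes, those of Gucy2d and Cnga3 include 0, and the list medians run from -0.11 to 0.06.

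Because Car2 is used by many cells, the markers of cells that could carry it were set beside it. Osteoclast markers, 7 of 8 with positive estimates, summed to 1469 to 4674 normalized counts in wildtype and 1984 to 4603 in the deletion. Red cell markers, 9 of 10 negative, summed to 1374 to 3376 and 1163 to 2417. Glial markers, 4 of 7 positive, summed to 3671 to 5027 and 3608 to 5072. Supporting cell markers, 4 of 4 positive, summed to 104321 to 127209 and 114486 to 130471, and microvillar cell markers, 5 of 6 positive, to 8508 to 11309 and 10044 to 10910. All of these ranges overlap between groups, 0 markers of these lists were at 0 in every library, and their part in the Car2 difference was not tested. Endothelial markers, which bear on Pde2a and Npr1, had 9 of 10 positive estimates and sums of 1127 to 1715 and 1187 to 1998, and their part was not tested either.

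Mature neuron markers had 6 of 8 positive estimates (median log2 change 0.05) and immature neuron markers 0 of 6 (median -0.03). Gland markers had 5 of 6 positive (median 0.10), and leukocyte markers 4 of 7 (median 0.01). The 3 vomeronasal markers in the table were too low to test, with summed values of 26.9 or less. No gene of the 11 marker lists was called by limma, edgeR or DESeq2, and among 72 tested an unadjusted p under 0.05 was found for 5 in limma, 4 in edgeR and 6 in DESeq2. Over all genes these tests called 0.372%, 0.346% and 0.47%. An unadjusted p under 0.05 was found for 6.68% of all genes in limma. Of 19373 genes it was found for 1293 in edgeR and 1281 in DESeq2. Omp, the mature neuron protein, had 60400 ± 6696 and 63115 ± 5927 normalized counts, and per kb a median of 1196 times the Gucy2d level within a library.

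The authors' deposited table gives changes as log2 of wildtype over deletion, so a negative value there means a higher level in the deletion. In the authors' deposited table Car2 had -0.17 with an adjusted p of 0.253, Gucy2d -0.12 with 0.905 and Cnga3 -0.08 with 0.917. Pde2a had 0.06 with an unadjusted p of 0.0748 in the authors' deposited table and no adjusted p. The sizes of these changes are not on the scale of those above. Their SE were 0.06 for Cnga3 and 0.04 for Pde2a. DESeq2 on recovered reads gave 0.54 ± 0.40 (SE) for Cnga3 and -1.58 ± 0.84 for Pde2a, as deletion over wildtype. The cause of the smaller deposited sizes was not tested.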

How the data were processed

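Total RNA libraries were stranded and ribodepleted, per the labels' protocols. STAR 2.6.0, DESeq2 and the build GRCm38.p6 are named in the submitters' processing notes; the read counter and its settings were not given in the sources used. Normalized counts (a signal, reads divided by size factors) were deposited. Per the file headers the same table holds the authors' log2 fold changes of wildtype over deletion, test score and raw and adjusted p-values.

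Whole reads were recovered: at least 99.985% of values above 0 in each library were multiples of 1 read within 0.01. Groups were compared with limma 3.58.1 (trend = TRUE) after a log2(value + 1) transform, keeping genes averaging at least 10, with Benjamini-Hochberg adjustment over 19373 genes; the design had named a raw count test first and this test for normalized values. Fold changes on this scale understate the change of low genes. edgeR 4.0.16 and DESeq2 1.42.0 on recovered reads, other scalings, pseudocounts and filters, covariates and left-out libraries were alternatives. Single genes were compared by exact permutation. Correlations used 100000 resamples, or exact permutation within a group. The main and edgeR tests were tested on simulated data. Fits ran in R 4.3.3. Tables were made with pandas 2.3.3 and scipy 1.17.1 in Python 3.11.15.

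Members, lists and alternatives were chosen with earlier results of these data known. From each list the text names genes called at 5%, the 2 most abundant tested genes and the smallest p in each direction; beside these, the 3 nearest tested genes on each side of a member on chromosome 7 and the 3 genes most like each tested member. Gene positions and exons came from GENCODE M21, matched for 99.7% of rows. Each animal gave 1 library.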

Additional observations from a re-analysis of the deposited data

Results flagged for a closer look

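For 67 genes, the lowest and the highest library of each group were examined with Dixon's ratio, the distance to the next library as a share of the group's range, at its 95% critical value for 6 samples. Chance alone passes it about 1 time in 20, and 9 of 134 groups did. Among the members it was Cnga3 in deletion library 2, at 5.27 normalized counts against 13.5 to 18.3 in the other 5. Of the related genes, Car11 stood at 142 in wildtype library 1 (others 394 to 518), Car5b at 112 in wildtype library 2 (144 to 157) and Gucy1a3 at 187 in deletion library 3 (130 to 149). Lrrc32, a neighbour of Gucy2d, stood at 33.7 in wildtype library 2 (8.99 to 16.1). Of the markers, Bpifb9b stood at 26874 in wildtype library 5 (1242 to 5609), Csf1r at 640 in wildtype library 6 (345 to 435), Hbb-bs at 2119 in wildtype library 1 (868 to 1247) and Sec14l3 at 47119 in deletion library 4 (44713 to 45482).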

How the results depend on the processing

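The log2 change kept its direction under all 24 alternatives for Gucy2d and Car2, and under 23 for Cnga3 and Pde2a, which have no value with a mean of at least 50, and no adjusted p over all genes of Gucy2d, Car2 or Cnga3 passed 5%. Over the single left-out libraries the log2 change ran from 0.13 to 0.42 for Gucy2d, 0.16 to 0.22 for Car2, 0.36 to 0.76 for Cnga3 and -1.46 to -0.58 for Pde2a, and the exact permutation p from 0.106 to 0.53, 0.00216 to 0.026, 0.0281 to 0.299 and 0.0281 to 0.413. The lowest Gucy2d change was without deletion library 5. The lowest p for Cnga3 was without deletion library 2 and for Pde2a without wildtype library 5. For Car2 the exact permutation p was 0.0857 in the 8 libraries with little Gm10800 signal, which are fewer samples. Genes called over the whole table numbered 72, from 61 to 79 over left-out libraries, and 40 with a mean of at least 50, a filter that tests fewer genes. Of the chromosome 7 neighbours 0 were called, but 1, Atg16l2, under DESeq2 and under the Gm10800 covariate, and 0 to 1 over left-out libraries; the cause was not tested. The r of Gucy2d with Pde2a, -0.08, was 0.17 in the 8 libraries, and ran from -0.32 to 0.099 over left-out libraries, with 0.099 without wildtype library 2 and 0.035 without wildtype library 5. Within single groups r turned sign for Gucy2d with Pde2a (0.79 in the deletion), Gucy2d with Cnga3 (-0.53 in wildtype) and Pde2a with Car2 (0.43 in the deletion). With the replicate number as a block, 71 genes were called, and log2 changes were as before with adjusted p of 0.646 for Gucy2d, 0.366 for Car2 and 0.704 for Cnga3. By their labels same-numbered libraries share only a number. Their deviations correlated at -0.15 to 0.36, and 1 of 6 matched its own number best, which cannot settle whether they were paired. With the block, 1480 genes had a limma unadjusted p under 0.05, against 1295 without it. The SE was 0.13 for Gucy2d (0.21 without the block), 0.05 for Car2 (0.06) and 0.32 for Cnga3 (0.34). For Pde2a it was 0.77, against 0.66 in the fit without the filter. Few reads limit Cnga3 and Pde2a.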
